A study of Bubalus bubalis with 6 samples.

Results

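The genes described here are 10 members of the Notch pathway: the receptors NOTCH1, NOTCH2 and NOTCH3, the ligands DLL1, DLL4, JAG1 and JAG2, and the HES/HEY target genes HES1, HEY1 and HEYL. They were taken by gene symbol from the deposited gene table, where each of the 10 is listed once among 24616 genes. Polyadenylated RNA was sequenced from 3 GM samples and 3 DM samples of water buffalo (Bubalus bubalis) muscle stem cells (MuSCs). GM samples are proliferating cells in growth medium. DM samples are cells moved, when nearly confluent, to a low-serum differentiation medium in which myotubes form. All 6 samples come from primary cells isolated by enzyme digestion of fetal longissimus muscle, and the labels name no genetic change. The labels do not say whether the samples of a group were cultures of their own, so p-values measure only the spread between these samples, which may be technical.

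Notch signaling passes between touching cells. A Delta-like or Jagged ligand on one cell binds a Notch receptor on its neighbour, the receptor is cut by ADAM proteases and then by γ-secretase, and the freed intracellular part joins RBPJ in the nucleus to switch on genes of the HES and HEY families, which encode transcriptional repressors. In skeletal muscle this pathway is known for keeping satellite cells undifferentiated and for holding back myogenic differentiation.

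Each sample held between 35615864 and 40305237 counts on genes. The groups were compared by the quasi-likelihood test of edgeR on the 15576 genes that had 10 or more counts over the 6 samples, with p-values adjusted by the Benjamini-Hochberg method over all of them. In what follows a gene rose or fell where the adjusted p-value was under 0.05, and it was called where its absolute log2 fold change was also above 1. Fold changes are DM over GM. Levels are given as CPM, which are counts scaled to a common library size with TMM factors, or as the deposited RPKM. The RPKM are divided by gene length and by the sample's summed gene counts, with no TMM factor, and are used to compare genes. Such comparisons rest on the lengths listed under cattle gene identifiers and on reads mapping equally well to each gene, which was not tested. Counts of replicates differed by more than sampling noise, and DM replicate 3 stood apart from the other DM samples (chi-square per degree of freedom of 40.5 and 41.4, against 6.22 to 11.7 for the other pairs within a group).

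In DM samples NOTCH1, DLL1, HEY1 and HEYL were each at less than 0.42 of their GM level and were called lower. HES1 and JAG2 fell by less, JAG1 and NOTCH2 rose without reaching the fold threshold, and NOTCH3 and DLL4 did not pass the test. All 10 genes had enough counts to be tested, although DLL4 did so with 11 counts over the 6 samples. The 4 called genes were 40% of the members, while 25.3% of all tested genes were called. None of the members was called higher, beside 15.0% of all tested genes, and 10.3% of all tested genes were called lower. Past the adjusted p-value alone were 8 members, beside 63.0% of all tested genes. Of these, 2 were higher and 6 lower, where 31.6% and 31.4% of all tested genes were so. GM and DM samples did not overlap in CPM for 9 of the 10 members, beside 68.8% of all tested genes. DLL4 was the exception. Of these 9 members, 3 were higher and 6 lower in DM samples, beside 34.5% and 34.3% of all tested genes. The median log2 fold change was -0.52 over the 10 members and 0.03 over all tested genes.

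**Figure D1:**
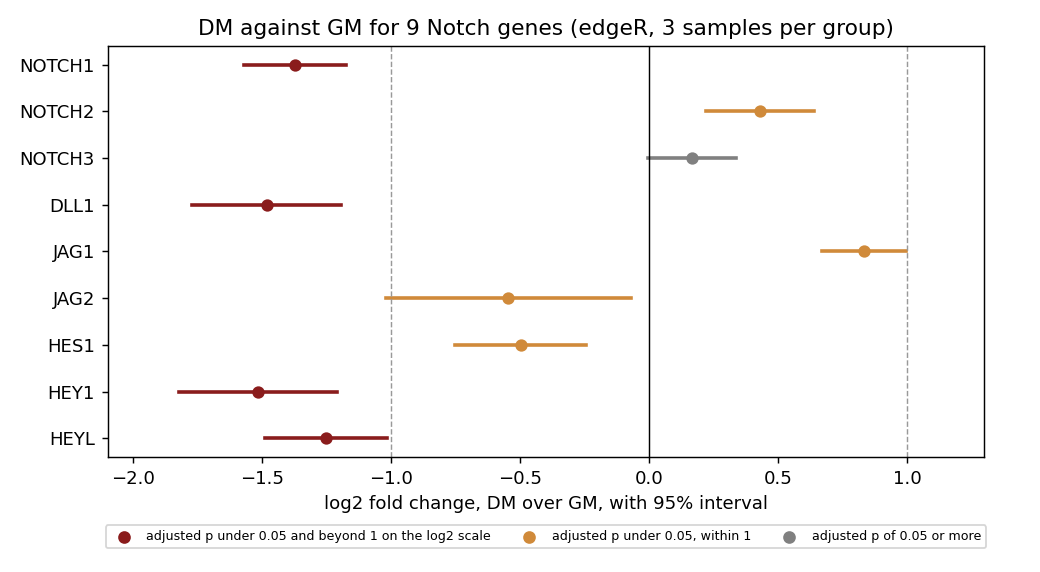
Log2 fold change of DM over GM samples (x axis) for 9 Notch genes, as fitted by edgeR on 3 samples per group, with 95% intervals as lines and dashed lines at the fold threshold. NOTCH1, DLL1, HEY1 and HEYL lie left of -1, JAG1 at 0.83 and NOTCH2 at 0.43 lie right of 0, and the interval of NOTCH3 spans 0. DLL4, with 11 counts in all, is not drawn.

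Among the receptors, NOTCH1 (ENSBTAG00000022799) is the one best known from satellite cells. It is listed on chromosome 11 from 103986874 to 104030692 on the minus strand, in cattle coordinates of a build that the table does not name. It held 2275, 2205 and 2116 counts in GM replicates 1, 2 and 3 and 775, 802 and 679 counts in DM replicates 1, 2 and 3. Every DM sample lay far below every GM sample. The level went from 54.6 ± 1.43 CPM to 21.1 ± 2.41 CPM (SD, n = 3 each), a 2.59-fold fall. The log2 fold change was -1.37 with a standard error of 0.089 (adjusted p = 3.28e-07 from edgeR).

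NOTCH2 (ENSBTAG00000007909, chromosome 3, 23307157 to 23478243, plus strand) was the most abundant of the receptors. Its counts were 25150, 21799 and 19764 in GM samples and 25829, 23602 and 30216 in DM samples. As raw counts the groups overlap, since GM replicate 1 exceeds DM replicate 2, but as CPM they do not, with 521 to 606 CPM in GM samples and 645 to 817 CPM in DM samples. The rise was a log2 fold change of 0.43 with a standard error of 0.094 (adjusted p = 0.00224 from edgeR), and over the alternatives it lay between 0.33 (library sizes with no TMM factor) and 0.54 (DM replicate 2 left out).

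NOTCH3 (ENSBTAG00000043971, chromosome 7, 8930803 to 8970307, plus strand), a receptor also known from pericytes and vascular smooth muscle, was nearly level. Counts were 2507, 2179 and 2326 in GM samples and 2229, 2288 and 2474 in DM samples. In CPM the lowest DM sample, at 62.5, was just above the highest GM sample, at 61.3. The log2 fold change was 0.17 with a 95% interval from -0.0041 to 0.34 (adjusted p = 0.0816 from edgeR), so a fold change of 2 in either direction lies outside the interval. NOTCH3 passed when the test was limited to genes that reached an RPKM of 1 in most samples (log2 fold change 0.22, adjusted p = 0.0253 from edgeR), and did not pass in the other alternatives.

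Among the ligands, DLL1 and JAG1 moved in opposite directions. DLL1 (ENSBTAG00000031476, chromosome 9, 105508313 to 105516028, minus strand), a Delta-like ligand made by myogenic cells, held 1118, 1252 and 1132 counts in GM samples and 375, 434 and 302 counts in DM samples. The GM samples all lay far above the DM samples. DLL1 went from 29.0 ± 1.75 CPM to 10.4 ± 1.95 CPM, a 2.79-fold fall (log2 fold change -1.48, standard error 0.13, adjusted p = 2.99e-06 from edgeR). JAG1 (ENSBTAG00000012817, chromosome 13, 3832286 to 3876681, minus strand), a Jagged ligand, held 1401, 1232 and 1250 counts in GM samples and 1904, 2046 and 2198 counts in DM samples. It was higher in each DM sample than in any GM sample and went from 32.1 ± 2.21 CPM to 57.2 ± 1.90 CPM. Its log2 fold change of 0.83, with a 95% interval from 0.67 to just under 1, stayed below the fold threshold (standard error 0.074, adjusted p = 3.25e-06 from edgeR).

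The other two ligands were scarce. JAG2 (ENSBTAG00000007319, chromosome 21, 71145150 to 71156637, minus strand) held 122, 139 and 158 counts in GM samples and 66, 94 and 97 counts in DM samples, without overlap. The fall was small against its error, with a log2 fold change of -0.55 and a standard error of 0.21 (adjusted p = 0.0459 from edgeR). The adjusted p-value was above 0.05 with DESeq2 (0.0581) and, in edgeR, with no filter on low counts (0.0505). It was also above 0.05 in edgeR without GM replicate 2 (0.0843), GM replicate 3 (0.190), DM replicate 1 (0.143) or DM replicate 2 (0.0694). Whether JAG2 passed the test thus depended on the setting. DLL4 (ENSBTAG00000010361, chromosome 10, 36577285 to 36586360, plus strand), a ligand best known from endothelial cells, held 0, 0 and 1 counts in GM samples and 6, 0 and 4 counts in DM samples. The summed counts of 10 against 1 give a ratio of 11.3 with a 95% exact binomial interval from 1.60 to 489, which covers counting error only. The groups overlap, and the test across genes gave an adjusted p-value of 0.0889 (edgeR), or 0.0299 without DM replicate 2, the DM sample with no count.

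The 3 target genes all fell, but not by the same amount. HEY1 (ENSBTAG00000015717, chromosome 14, 45126102 to 45128997, minus strand) held 366, 380 and 311 counts in GM samples and 107, 110 and 110 counts in DM samples. The DM samples were nearly identical and all were under the GM samples. HEY1 went from 8.72 ± 0.474 CPM to 3.05 ± 0.104 CPM, a 2.86-fold fall and the largest among the members that passed the test (log2 fold change -1.52, standard error 0.14, adjusted p = 3.93e-06 from edgeR). HEYL (ENSBTAG00000008688, chromosome 3, 107032468 to 107047976, plus strand) held 1970, 1980 and 1861 counts in GM samples and 709, 837 and 615 counts in DM samples, again without overlap. The level of HEYL went from 48.1 ± 0.888 CPM to 20.2 ± 3.21 CPM, a 2.38-fold fall (log2 fold change -1.25, standard error 0.11, adjusted p = 2.35e-06 from edgeR). HES1 (ENSBTAG00000000569, chromosome 1, 73973533 to 73976720, minus strand), the most widely expressed Notch target of the HES family, held 546, 646 and 628 counts in GM samples and 338, 405 and 405 counts in DM samples. All DM samples were below the GM samples, yet the fall was only 1.41-fold, from 15.1 ± 1.74 CPM to 10.7 ± 0.580 CPM (log2 fold change -0.50, standard error 0.11, adjusted p = 0.00304 from edgeR). The 95% interval of HES1, from -0.75 to -0.24, does not overlap that of HEY1, from -1.82 to -1.21, or that of HEYL, from -1.49 to -1.02, although the difference between genes was not itself tested. These samples are bulk cultures, so fewer cells of a type and less RNA per cell cannot be told apart.

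Levels were compared between members as RPKM. NOTCH2 was first in both groups, with 76.8 ± 6.92 RPKM in GM samples and 96.7 ± 10.7 RPKM in DM samples, which placed it above 91.7% and 94.7% of tested genes. In GM samples the order after it was HEYL (15.1 RPKM), DLL1 (12.9), HES1 (10.6), NOTCH3 (8.58), NOTCH1 (7.42), HEY1 (6.93), JAG1 (5.67), JAG2 (1.10) and DLL4. Only NOTCH1 and HEY1 had overlapping ranges among neighbours in this order. In DM samples the order after NOTCH2 was JAG1 (9.44 RPKM), NOTCH3 (8.99), HES1 (7.01), HEYL (5.92), DLL1 (4.33), NOTCH1 (2.68), HEY1 (2.26), JAG2 (0.701) and DLL4. There the ranges overlapped between JAG1 and NOTCH3, between HES1 and HEYL and between HEYL and DLL1. JAG1 thus ranked 8 of 10 in GM samples and 2 of 10 in DM samples, where its range overlapped that of NOTCH3, and DLL1 ranked 3 and 6.

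**Figure D2:**
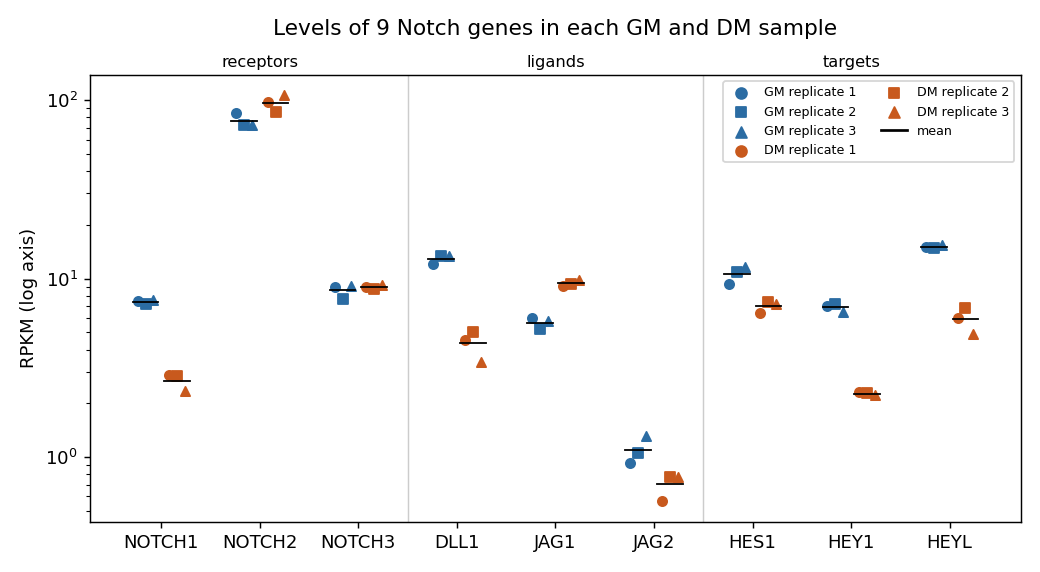
RPKM on a log axis (y) of 9 Notch genes in each of the 3 GM samples (blue) and 3 DM samples (orange), with the shape giving the replicate and a bar giving the mean. NOTCH2 lies at 72.7 to 84.8 RPKM in GM samples and 85.5 to 107 RPKM in DM samples. The DM points of NOTCH1, DLL1, HEY1 and HEYL lie below their GM points, and those of JAG1 lie above. DLL4 is at or near 0 and is not drawn.

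The make-up of each role was followed as the share of each gene in the summed RPKM of its role. In GM samples NOTCH2 held 81.4 to 83.8% of receptor RPKM and NOTCH1 7.39 to 8.49%. In DM samples NOTCH2 held 88.0 to 90.2% and NOTCH1 1.98 to 2.92%. In a single GM sample NOTCH2 was 9.58 to 11.3 times as high as NOTCH1 per length, and in a single DM sample 30.2 to 45.7 times. Among ligands the leading gene per length differed between the groups. In GM samples DLL1 held 65.7 ± 2.32% of ligand RPKM and JAG1 28.8 ± 2.52% (SD, n = 3). In DM samples DLL1 held 29.8 ± 4.77% and JAG1 65.2 ± 4.25% (SD, n = 3). DLL1 was 2.02 to 2.57 times as high as JAG1 in each GM sample, and JAG1 was 1.86 to 2.87 times as high as DLL1 in each DM sample. Without division by length DLL1 did not lead on average in GM samples, where JAG1 had the higher mean (32.1 against 29.0 CPM). In GM replicate 2 alone DLL1 was slightly higher than JAG1, at 30.1 against 29.6 CPM. Among targets, HES1 went from 32.4 ± 2.54% to 46.2 ± 3.61% of the summed RPKM, HEYL from 46.3 ± 1.39% to 38.8 ± 4.02% and HEY1 from 21.3 ± 1.63% to 14.9 ± 1.02%. GM and DM samples did not overlap in the shares of NOTCH1, NOTCH2, DLL1, JAG1, HES1, HEY1 and HEYL. For each of these 7 genes the exact two-sided permutation test gave p = 0.1, the smallest that 3 samples against 3 allow, and 0.143 after adjustment over 10 shares, so no share could reach 0.05. The shares of NOTCH3, JAG2 and DLL4 overlapped between the groups.

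**Figure D3:**
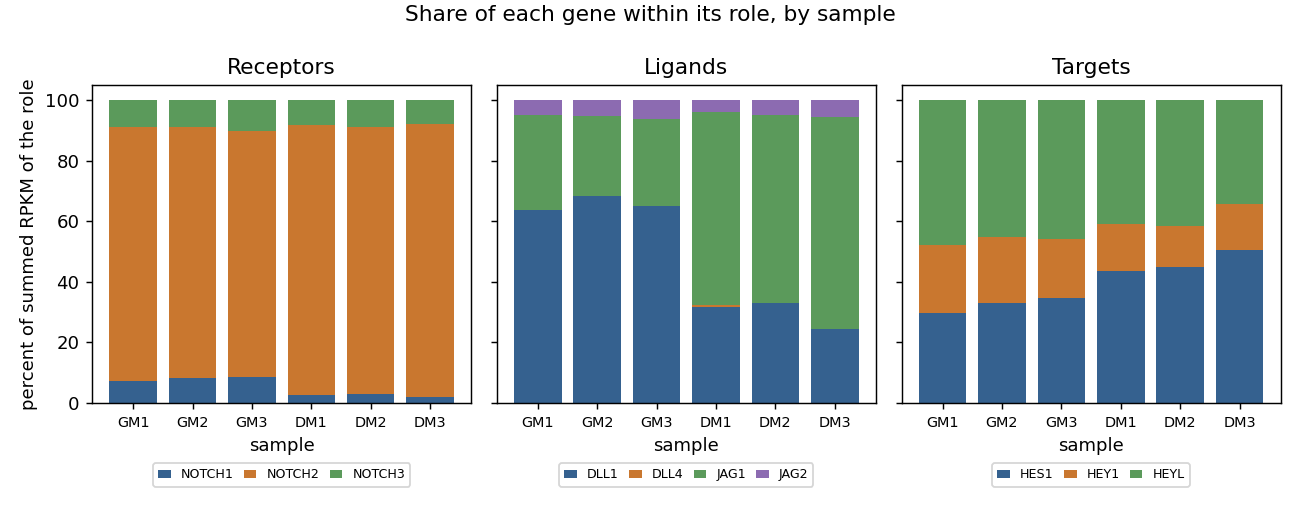
Percent of the summed RPKM of receptors, ligands and targets (y axis, stacked to 100) held by each gene in each GM and DM sample (x axis). Per length, DLL1 is the larger part of the ligands in the 3 GM samples and JAG1 in the 3 DM samples, while NOTCH2 is the larger part of the receptors in all 6.

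The summed RPKM of the targets went from 32.6 ± 1.21 in GM samples to 15.2 ± 1.14 in DM samples, while that of the receptors went from 92.8 ± 7.33 to 108 ± 10.7. The ligands went from 19.7 ± 0.749 to 14.5 ± 0.596. In these sums the GM and DM samples overlapped for the receptors but not for the ligands or the targets. The direction for the ligands depends on the scale, since their summed CPM, with no division by length, was 63.0 to 67.0 in GM samples and higher, at 69.6 to 70.3, in DM samples. The receptors summed to 629 to 722 CPM in GM samples and did not overlap with DM samples, at 729 to 902 CPM. For the targets both scales gave a lower sum in DM samples, with 69.5 to 73.8 CPM against 30.5 to 36.9 CPM.

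DM replicate 3 was the lowest DM sample for NOTCH1, DLL1, HEY1 and HEYL, and the highest for NOTCH2, NOTCH3, JAG1 and JAG2. In NOTCH1, DLL1 and HEYL it held 18.3, 8.16 and 16.6 CPM, against 21.9, 11.1 and 21.0 CPM in the lower of the other DM samples. Without it the log2 fold changes were -1.27 for NOTCH1, -1.33 for DLL1, -1.49 for HEY1 and -1.12 for HEYL, and all 4 were still called. Without it JAG1 had a log2 fold change of 0.81 and NOTCH2 one of 0.36, and both still rose.

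Each member had 1 transcript in the deposited mRNA table, apart from HES1 with 2. For the members with 1 transcript its counts equalled those of the gene in every sample. The HES1 transcripts held 338 to 646 and 294 to 538 counts, more in sum than the gene, so reads were counted on both. None of the 10 members overlaps another gene of the table in its listed interval.

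The genes most like JAG1 and HEY1, the members with the highest and the lowest log2 fold change among those that passed the test, were found by the distance between their log2 CPM values, centred over the 6 samples, among the 8059 genes whose mean was 10 CPM or more. Close to JAG1 were LONP2, a peroxisomal protease, with a distance of 0.089, and ZNF521, a zinc finger protein, with 0.093. LONP2 went from 56.9 to 97.2 CPM and ZNF521 from 31.7 to 55.5 CPM. Nearest to HEY1 were RTTN, a centriole protein, with 0.081, LDLRAD3, with 0.092, and CKAP4, a protein of the endoplasmic reticulum, with 0.097. With 6 samples in groups that differ at many genes, such distances describe the shape of the difference and nothing more.

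The rest of the pathway was followed in a list of 77 genes grouped by role, of which 73 are in the table and 68 were tested. Of these, 18 (26.5%) were called, beside 25.3% of all tested genes. The 10 called higher and 8 called lower stand beside 15.0% and 10.3% of all tested genes. Without DM replicate 2 they were 8 and 5. Past the adjusted p-value alone were 53 (77.9%), beside 63.0% of all tested genes. Of these, 25 were higher and 28 lower, where 31.6% and 31.4% of all tested genes were so. The median log2 fold change was -0.09, beside 0.03 over all tested genes. The shares of all tested genes given here also stand beside the counts by role and by marker list below. Calls were most frequent among the other receptors and ligands and absent among the ADAM and γ-secretase genes of receptor cleavage.

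**Figure D4:**
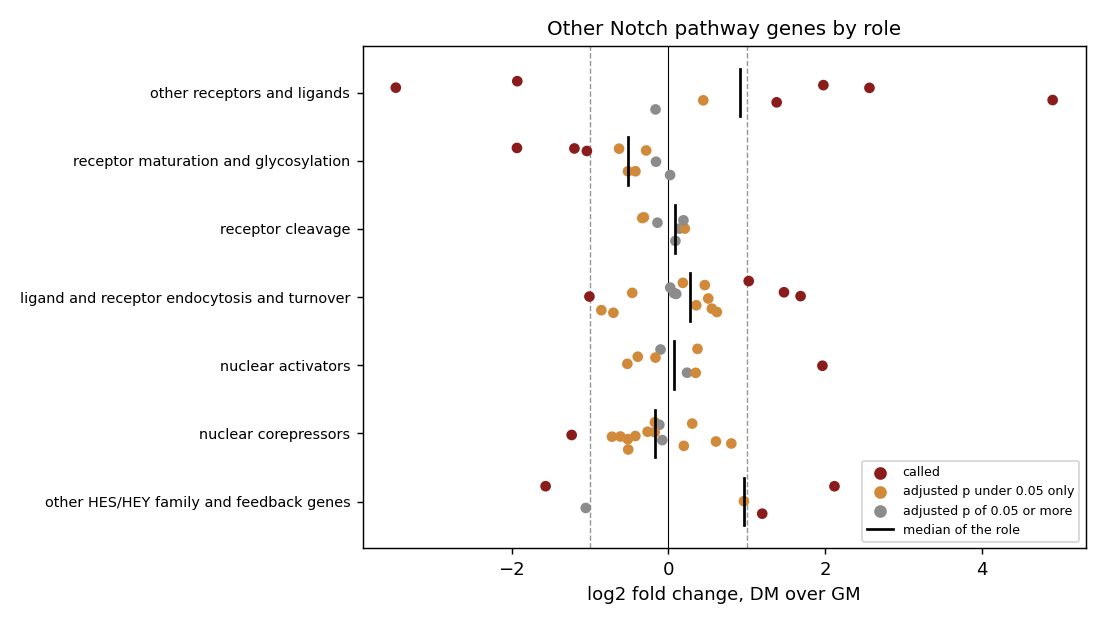
Log2 fold change of DM over GM samples (x axis) for the 68 tested genes of the Notch pathway list, each point a gene, by role (y axis), with the median of the role as a bar and dashed lines at the fold threshold. All but 1 of the genes of receptor maturation lie left of 0, the 7 proteolysis genes lie within 0.34 of 0, and the other receptors and ligands spread from -3.48 to 4.91.

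Of 9 tested genes of receptor maturation and glycosylation, 7 fell, none rose and 2 did not pass the test, with a median log2 fold change of -0.52. LFNG, the Lunatic Fringe enzyme that adds a sugar to Notch and alters which ligands it answers, went from 49.5 ± 2.48 CPM to 21.6 ± 3.56 CPM (log2 fold change -1.20, adjusted p = 4.78e-06 from edgeR). FURIN, the protease that cuts the receptor on its way to the surface, went from 178 ± 5.05 CPM to 86.5 ± 6.33 CPM. Its log2 fold change of -1.04 became -0.97, and the call was lost, without DM replicate 2. The call was also lost (-0.98) when the test was limited to genes that reached an RPKM of 1 in most samples. MFNG, or Manic Fringe, held 29, 46 and 21 counts in GM samples and 5, 1 and 16 counts in DM samples and was called lower. Its log2 fold change was -1.93, or -3.15 without DM replicate 3, and its adjusted p-value rose above 0.05 without GM replicate 1 (0.0551), GM replicate 2 (0.110), DM replicate 1 (0.0833) or DM replicate 2 (0.0588). Of the 7 tested genes of the ADAM proteases and γ-secretase, none was called. ADAM10, which makes the first cut, fell from 93.6 ± 4.95 to 75.4 ± 5.78 CPM, and APH1A, a γ-secretase subunit, from 115 ± 6.13 to 91.3 ± 5.22 CPM. LFNG, FURIN, ADAM10 and APH1A were named after their values were seen.

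Of the 16 tested genes of endocytosis and turnover, 9 rose and 4 fell, with 3 called higher and 1 called lower. DTX1, a Deltex gene, was called higher on 3, 3 and 5 counts in GM samples and 17, 10 and 5 counts in DM samples. The log2 fold change was 1.69. This call was lost with DESeq2 (adjusted p = 0.109), with library size alone (0.0584), with no filter on low counts (0.0538), with the replicate block (0.0885), and when any sample but DM replicate 3 was left out, with adjusted p-values from 0.0590 to 0.203 (edgeR). DTX3L rose from 4.22 ± 0.344 to 11.8 ± 1.20 CPM, and MIB2, a ligase that acts on Notch ligands, from 26.8 ± 1.87 to 54.7 ± 3.55 CPM. The log2 fold change of MIB2 was 1.03, and it fell just under the threshold with library size alone (0.93) and without GM replicate 1 (0.99) or DM replicate 1. DTX3L overlaps a gene on the opposite strand and MIB2 a gene on the same strand. NEURL1, of the Neuralized family, fell from 7.54 ± 0.500 to 3.75 ± 0.489 CPM. Its log2 fold change of -1.01 became -0.95, -0.97 and -0.92, with the call lost, without GM replicate 2, DM replicate 1 and DM replicate 2. It was lost too under both stricter filters on low values. NUMB, an inhibitor of Notch, went from 26.1 to 27.4 CPM and did not pass the test (adjusted p = 0.381 from edgeR). MIB2, DTX3L and NUMB were also named after their values were seen.

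In the nucleus, RBPJ, the DNA-binding partner of the Notch intracellular domain, fell from 72.6 ± 2.41 to 55.3 ± 3.01 CPM (log2 fold change -0.39, adjusted p = 0.000486 from edgeR) and was named after its values were seen. Of the 8 tested activators 3 rose and 3 fell, and MAML3, a Mastermind coactivator, was the only one called, from 0.544 ± 0.180 to 2.14 ± 0.411 CPM (log2 fold change 1.97). Of 15 tested corepressors 9 fell and 4 rose. TLE2, of the Groucho family, was the only one called, with 86, 86 and 96 counts in GM samples and 36, 28 and 37 counts in DM samples (log2 fold change -1.23).

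Among the other receptors and ligands, NOTCH4 was low in all samples, with 101 to 126 counts in GM samples and 128 to 142 counts in DM samples (log2 fold change 0.45, adjusted p = 0.0464 from edgeR). It no longer passed in 10 of its 12 alternatives, the omission of any single sample among them (adjusted p from 0.0501 to 0.131). DLL3 held 4 to 23 counts and did not pass the test (adjusted p = 0.853). The non-canonical ligands moved in both directions. DLK1 fell from 60, 76 and 47 counts to 11, 1 and 2, a log2 fold change of -3.48 that was -5.09 without DM replicate 1. DNER fell from 43, 47 and 36 counts to 10, 10 and 9 (log2 fold change -1.93). DLK2, which overlaps a gene on the opposite strand, rose from 32, 41 and 30 counts to 99, 132 and 131 (log2 fold change 1.98).

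MFAP2 and MFAP5, proteins of the elastic microfibrils that can bind Notch, rose from 75.5 ± 2.66 to 197 ± 7.80 CPM and from 1.64 ± 0.245 to 9.75 ± 0.884 CPM. CNTN1, a neural adhesion protein that can bind Notch, was called higher on 0, 0 and 1 counts in GM samples and 9, 27 and 1 counts in DM samples, a ratio of 41.7 with a 95% exact binomial interval from 7.03 to 1691. The call was lost without DM replicate 2 (adjusted p = 0.0566 from edgeR), and the fitted log2 fold change moved from 4.91 to 3.68 without it and to 6.73 without GM replicate 3.

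The other HES/HEY genes did not follow the 3 targets as a group. HES6, which encodes a HES protein that counters HES1 and favours differentiation, rose from 219, 185 and 156 counts to 287, 475 and 381, without overlap (edgeR log2 fold change 1.20, standard error 0.18, adjusted p = 0.000152). HES7 rose from 4, 20 and 15 counts to 24, 54 and 76 (log2 fold change 2.12), and HES2 from 50, 89 and 61 counts to 138, 124 and 82 without overlap in CPM. HES2 had a log2 fold change of 0.96, and it was called without GM replicate 2 or DM replicate 3 (1.20 and 1.18) and no longer passed the test without GM replicate 1 or DM replicate 1 (adjusted p = 0.0619 and 0.0616). HES4 fell from 46, 55 and 24 counts to 9, 11 and 17 (log2 fold change -1.57, adjusted p = 0.00669 from edgeR). HEY2 held 17 counts in all and did not pass (adjusted p = 0.397). NRARP, a feedback inhibitor induced by Notch, held 4 counts over the 6 samples, on a listed length of 345 bases. HES5 and HELT held none, which at 3 counts per sample allows up to 0.0721 to 0.0888 CPM.

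The samples carried the marks of myogenic cells. PAX7, the satellite cell factor, held 702 to 774 counts in GM samples and 226 to 415 counts in DM samples and fell (log2 fold change -0.92). MYF5 fell by 2.70 on the log2 scale, and MYOD1 rose by 0.90. In DM replicate 3 MYOD1 was at 39.3 CPM, just above the highest GM sample at 36.1 CPM. DM replicates 1 and 2 held 67.2 and 75.0 CPM of it. All 10 myogenic markers were tested, 6 rose and 3 fell, and DES did not pass (adjusted p = 0.217 from edgeR). Their summed level was 2893 to 3441 CPM in GM samples and 5473 to 7502 CPM in DM samples. Of 10 fibroblast markers 9 were tested and 8 rose. The fibroblast markers sum to 35451 to 36198 CPM in GM samples and 97686 to 123606 CPM in DM samples. Most of this sum came from COL1A1, COL1A2 and COL3A1, with DM means of 44328, 23420 and 39251 CPM. Outside the collagens, DCN, THY1, LUM, DPT and PDGFRA rose by 2.37, 1.55, 1.24, 0.96 and 0.58 on the log2 scale. OSR1 did not pass the test (adjusted p = 0.0711 from edgeR), and TCF21 held 8 counts in all. Most fibroblast markers thus differed between GM and DM samples, as most of the Notch members did, and their part in these results was not tested. Among 10 pericyte and smooth muscle markers 4 rose and 2 fell, with sums of 2749 to 2902 CPM and 2752 to 3278 CPM. PDGFRB, MYH11, KCNJ8 and ABCC9 rose, MCAM and TAGLN fell, and RGS5, CSPG4, ACTA2 and CNN1 did not pass the test. Most of these sums came from ACTA2, with 1191 CPM in GM and 1351 CPM in DM samples, and TAGLN, with 1371 and 1115 CPM. PDGFRB went from 69.8 to 239 CPM, MYH11 from 3.32 to 5.69 CPM, KCNJ8 from 0.277 to 13.8 CPM and ABCC9 from 2.01 to 48.6 CPM. MCAM went from 37.9 to 24.2 CPM. The 10 endothelial markers are those beside which DLL4, NOTCH4 and JAG1 are also read. They summed to 13.6 to 15.8 CPM in GM samples and 14.2 to 24.3 CPM in DM samples. ERG was the largest part of this sum in every sample. It held 9.67, 8.68 and 7.57 CPM in GM and 7.90, 6.64 and 14.8 CPM in DM replicates 1, 2 and 3. ERG did not pass the test (adjusted p = 0.561 from edgeR), and PECAM1 held 14 counts in all. Of 9 tested endothelial markers, 1 rose and 3 fell. TEK rose from 1.47 to 4.20 CPM, and CDH5, TIE1 and VWF fell. No marker in these lists was at 0 counts in all 6 samples. Adipocyte markers summed to 7.07 to 8.39 CPM in GM samples and 7.57 to 8.97 CPM in DM samples. Schwann cell markers summed to 5.09 to 6.28 CPM in GM samples and, without overlap, 1.72 to 2.97 CPM in DM samples. Immune markers summed to 6.01 to 8.05 CPM in GM samples and 7.22 to 13.7 CPM in DM samples. Of 7 tested adipocyte markers 2 rose (FABP4 and CIDEC) and 1 fell (PPARG, from 4.33 to 0.319 CPM). Of 3 tested Schwann cell markers 0 rose and 1 fell (NGFR, from 4.17 to 0.466 CPM). Of 4 tested immune markers 1 rose (CD14, from 1.09 to 7.40 CPM) and 1 fell (CD68, from 5.29 to 2.59 CPM).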

How the data were processed

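The authors prepared polyA libraries and, per their methods, aligned reads with HISAT2 to a buffalo genome, whereas the deposited tables list cattle Ensembl identifiers without a build, and the submitters' processing notes list mm8, mm9 and Bowtie 0.12.2. The deposited count columns hold raw counts per gene or mRNA transcript. The deposited RPKM columns were computed by the authors from these counts, the gene length and the sample's summed counts. Their lists of fold changes and p-values were not used, nor were ncRNAs.

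Counts were tested with edgeR 4.0.16 (glmQLFit, glmQLFTest, TMM) in R 4.3.3, without covariates, on genes with at least 10 counts in total. Standard errors come from the F statistic. The code was tested on simulated data. Tables were handled with Python 3.11.15 and pandas 2.3.3, and exact tests with scipy 1.17.1. The thresholds on fold change and adjusted p-value are those of the authors' methods. Their methods also limit calls to genes that reach an RPKM of 1 in most samples. That limit was run as an alternative and was not part of the main test. Alternatives were DESeq2 1.42.0, other normalizations and filters, no fold threshold, a replicate block, mRNA counts, raw counts for shares and each sample left out.

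Members and lists were chosen with earlier results of these data known, and lists were written from general knowledge. Named were all members and, in the pathway list, the called gene with the largest rise and fall of each role and every tested other receptor, ligand and HES/HEY gene. MYMK is listed as TMEM8C. EGFL7, PSENEN, ITCH and MAML1 have no row under these symbols. Some results that the rule would name are not reported here.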

Additional observations from a re-analysis of the deposited data

How the results depend on the processing

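NOTCH1, DLL1, HEY1 and HEYL were called in all 14 alternatives run for each of them. Among these alternatives, the mRNA counts repeat the gene counts of the 4 genes, so that setting is no separate check. Total counts of calls moved by over 1.5 times under 2 settings. With no minimum fold change they were 9813 genes, 8 members and 53 pathway genes. Limiting the test to genes that reached an RPKM of 1 in most samples, as the authors' methods do, gave 2197 genes and 7 pathway genes. Of the 18 pathway calls 10 were then not tested, FURIN and NEURL1 were tested and lost, and HES2 was added (log2 fold change 1.02). Without DM replicate 2, pathway genes called lower went from 8 to 5, and members called higher from 0 to 1 (DLL4). DLL3, which did not pass the test at a log2 fold change of -0.16, turned to 0.084 with the replicate block and ranged from -0.56 to 1.02 when a sample was left out (1.02 without GM replicate 1 and 0.05 without DM replicate 3). With raw counts in place of RPKM, the share of DLL1 moved by -30.1 percentage points and not -35.9, that of JAG1 by 31.9 and not 36.4, that of JAG2 by -1.98 and not -0.70, and that of HEY1 by -3.10 and not -6.33. Samples with the same replicate number did not deviate together (r = -0.0076, -0.022 and -0.010 across genes), and 0 of 6 samples correlated best with its own number. With the replicate block, edgeR called 3837 genes, 4 members and 17 pathway genes. Genes with few counts, such as DLL4, CNTN1, DTX1 and HEY2, are limited by depth, and DLL4 could not be tested in 4 alternatives for lack of counts. Causes were not tested.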
